A study of Mus musculus with 2 samples.

Results

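The D-type cyclins and the inhibitors of cyclin-dependent kinases (CDKs) are described here in C2C12, an immortalised mouse myoblast line, and in a Gne KO line made from it. The members were chosen by gene symbol. They are the cyclin genes Ccnd1, Ccnd2 and Ccnd3, the Cip/Kip inhibitor genes Cdkn1a, Cdkn1b and Cdkn1c and the INK4 inhibitor genes Cdkn2a, Cdkn2b, Cdkn2c and Cdkn2d, and all 10 were found among 21829 genes. RNA sequencing values of 2 libraries were analysed, 1 from WT cells and 1 from cells with the genotype label GNE KO. According to the paper, C2C12 myoblasts were cultured in serum-containing medium, with glucose in its standard condition. The paper reports that WT and KO cells grew at similar rates in standard culture. Whether the cells of these 2 libraries were dividing when RNA was taken was not measured. Gne encodes the enzyme that starts sialic acid synthesis. The KO line was made by CRISPR–Cas9 editing of exon 2, with an indel that leads to a premature stop codon, after transfected cells had been diluted and grown as single clones. With 1 library per line no difference has a replicate check, no test was possible, and the edit cannot be told apart from a difference between clones.

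D-type cyclins are made when growth factors reach a cell, and they bind and activate the kinases CDK4 and CDK6. These kinases phosphorylate the retinoblastoma protein and its relatives, which releases E2F transcription factors and lets the cell enter S phase. INK4 inhibitors bind CDK4 and CDK6 themselves, whereas Cip/Kip inhibitors bind complexes of cyclins with CDKs. In muscle cultures, cyclin D1 marks dividing myoblasts, and p21, the product of Cdkn1a, accompanies the exit from the cell cycle when they differentiate.

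The deposited values were taken as FPKM, a fragment number divided by transcript length and by sequencing depth, so that levels can be set side by side between genes. Differences between the libraries are given as log2((KO + 1)/(WT + 1)), which understates the change of low genes. Of the 10 members, 7 had a mean of at least 1 FPKM, the filter applied to all genes, and the other 3 were listed at 0 in both libraries. Of the 7, 1 was more than 2-fold higher in the KO-labelled library, Ccnd2. By the same rule, 2.84% of all 10542 filtered genes were higher. None of the 7 was lower by more than 2-fold, while 3.43% of all filtered genes were. Ccnd2 passed the filter through its value in the KO-labelled library only, so this count of 1 says little about the members as a group. The median difference was 0.009 for the 7 members and 0.0061 for all genes.

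Gne itself was at 6.67 FPKM for WT and at 7.34 FPKM in the KO-labelled library. A lower RNA level is not required for a frameshift, so this value does not check the labels, and every direction given here rests on them. The myoblast label was checked against markers. Of 8 myoblast markers, 6 were lower and 1 was higher in the KO-labelled library, with summed levels of 246 and 54.1 FPKM. Des was at 97.6 FPKM in WT and 3.84 FPKM in the KO-labelled library, and Myod1 at 60.0 and 0 FPKM. Myf5, the marker that was higher, was at 9.14 and 20.3 FPKM. Pax7 was listed at 0 in both. Of 8 fibroblast and mesenchymal markers, 4 were higher and 1 was lower, with summed levels of 219 and 434 FPKM, and Thy1, Lum and Tcf21 were listed at 0 in both. Much of the first sum was Ly6a, the marker that was lower, at 198 and 146 FPKM. Much of the second sum was Col1a1, at 9.66 and 273 FPKM, so these sums rest mainly on single genes. The 22 markers of endothelial, leukocyte, adipocyte, neural and epithelial cells summed to 3.18 and 1.27 FPKM. In bulk RNA, fewer cells of a type and less RNA per cell cannot be told apart, and the part of these marker shifts in the values below was not tested.

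**Figure D1:**
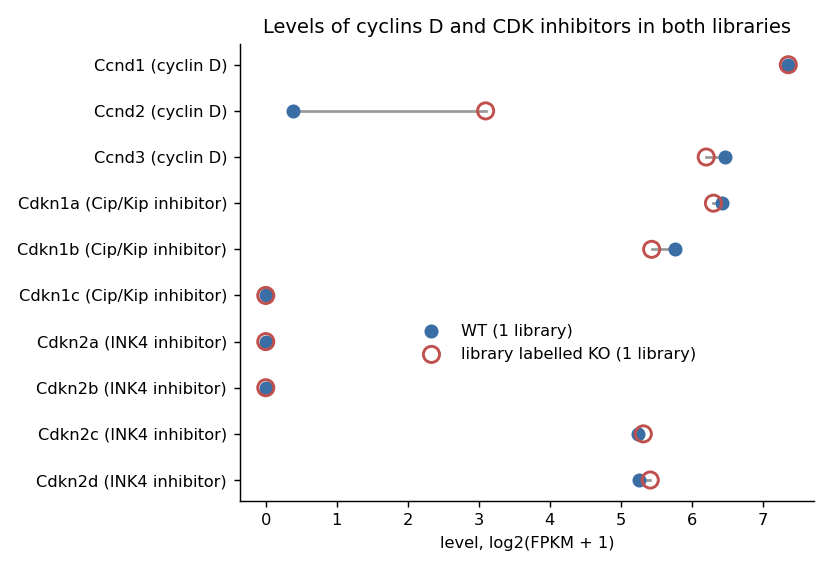
Level of each member of WT (filled points) and of the KO-labelled library (open circles), as log2(FPKM + 1), with 1 library per line and therefore no error bars. The circles lie on or close to the points for all members but Ccnd2, which was at 0.306 FPKM in WT and 7.56 FPKM in the KO-labelled library, and 3 members lie at 0.

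Among the D-type cyclins, Ccnd2 differed between the lines while the total hardly did. Ccnd2 encodes cyclin D2, which many cell types use beside or instead of cyclin D1. Its level was 0.306 FPKM for WT and 7.56 FPKM in the KO-labelled library, a ratio of 24.7 and a log2 difference of 2.71. Ccnd2 was thus nearly absent from the WT library and low but plain in the other. By the size of a difference toward KO it ranked 34 among the 10542 genes, and 60 genes, or 0.569%, had a larger difference in either direction. How many reads each library held is unknown. Genes whose main transcript is within 10% of the 6330 bases of Ccnd2 had values down to 0.003 FPKM in WT. The WT value of Ccnd2 was 102 times this smallest value, which is rounded, so the ratio is not a number of reads.

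Ccnd1 encodes cyclin D1 and was the most abundant member in both libraries. It was at 162.5 FPKM in WT and 163.6 FPKM in the KO-labelled library, a log2 difference of 0.01. Its rank among all genes by level was 525 in each library. The sign of this difference depends on the scaling, and it was -0.01 when both libraries were scaled to the same total. Ccnd3 encodes cyclin D3, the D-type cyclin that stays in differentiating muscle cells. It was at 87.98 FPKM in WT and 72.8 FPKM in the KO-labelled library, a log2 difference of -0.27. This lay just outside the middle 50% of all genes, which ran from -0.21 to 0.23. Differences at least as large are common, since 42.1% of genes had a larger one in either direction.

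The sum of the 3 cyclins was 250.8 FPKM in WT and 243.9 FPKM in the KO-labelled library. Ccnd1 made up 64.8% and 67.1% of it, and Ccnd3 made up 35.1% and 29.8%. The share of Ccnd2 was 0.122% in WT and 3.10% in the KO-labelled library. Cyclin D1 transcripts therefore led in both lines, and cyclin D2 was the least of the cyclins D in both, even where it was 24.7 times higher. There were 531 Ccnd1 transcripts for each Ccnd2 transcript in WT and 21.6 in the KO-labelled library, a ratio taken within a library, which does not depend on its scaling.

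**Figure D2:**
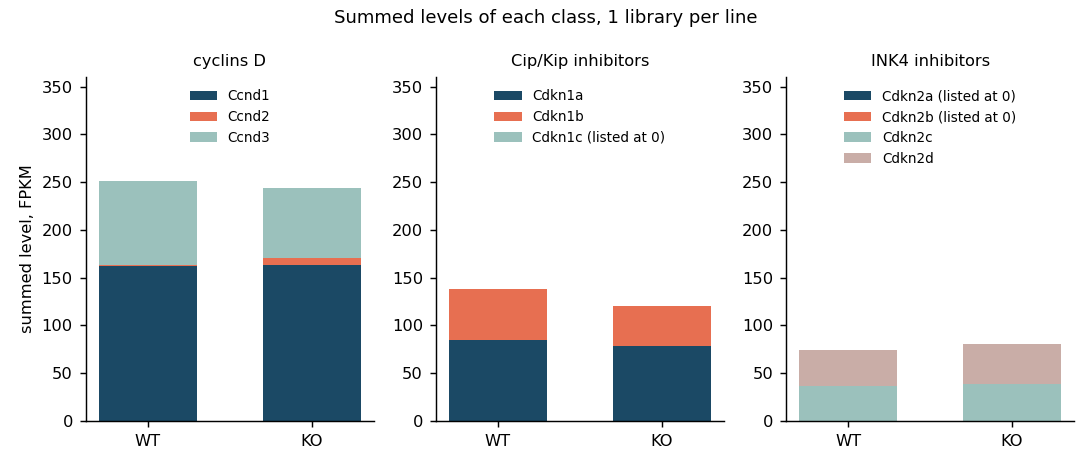
Stacked bars of the summed level in FPKM for the cyclins D, the Cip/Kip inhibitors and the INK4 inhibitors, for WT and for the KO-labelled library (1 library each, no error bars). The cyclin D bars reach 250.8 and 243.9 FPKM, and the Ccnd2 layer is visible only in the second.

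The Cip/Kip genes that were measured were both slightly lower in the KO-labelled library. Cdkn1a, which encodes p21, the inhibitor induced by p53 and in differentiating myoblasts, was at 85.1 FPKM in WT and 78.2 FPKM in the KO-labelled library. The log2 difference was -0.12, inside the middle 50% of all genes. Cdkn1b encodes p27, an inhibitor that accumulates in resting cells. It was at 53.5 FPKM in WT and 42.3 FPKM in the KO-labelled library, a log2 difference of -0.33. This was the lowest value among the members, and 33.4% of all genes had a larger difference in either direction. Cdkn1a kept the larger share of the class, with 1.59 times the level of Cdkn1b in WT and 1.85 times in the KO-labelled library. Cdkn1c, the imprinted gene for p57, was listed at 0 in both. The class summed to 138.6 FPKM in WT and 120.5 FPKM in the KO-labelled library.

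The INK4 genes fell into a pair that was measured at nearly equal levels and a pair that was listed at 0. Cdkn2c encodes p18 and was at 37.0 FPKM in WT and 38.9 FPKM in the KO-labelled library, a log2 difference of 0.07. Cdkn2d encodes p19Ink4d and was at 37.1 FPKM in WT and 41.7 FPKM in the KO-labelled library, a log2 difference of 0.16. Their levels stood in a ratio of 1.002 in WT and 1.07 in the KO-labelled library, so neither led the class. The class summed to 74.2 and 80.7 FPKM.

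Cdkn2a and Cdkn2b, by contrast, were listed at 0 in both libraries. Cdkn2a gives rise to p16Ink4a and, from another start and in another reading frame, to p19Arf, which stabilises p53, and Cdkn2b encodes p15. The value of Cdkn2a covers both of its products. Values of 0 are common, being listed in both libraries for 33.7% of all genes. Of 72 ribosomal protein genes, 0 were at 0 in a library. Such highly expressed genes cannot show whether a value of 0 is reliable for a gene with little RNA. For genes with a main transcript within 10% of that of Cdkn2a, 852 bases, the smallest value above 0 was 0.038 FPKM in WT and 0.046 FPKM in the KO-labelled library. At the 2722 bases of Cdkn2b it was 0.010 and 0.006 FPKM, and at the 1930 bases of Cdkn1c it was 0.011 and 0.016 FPKM. The values thus give no sign of RNA from these 3 genes at this depth, which is not evidence that it was absent.

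Cdkn2a and Cdkn2b lie 10.3 kb apart on the minus strand of chromosome 4 (GRCm39, GENCODE vM39), from 89192708 to 89212890 and from 89223204 to 89229276. The next gene of the files on the Cdkn2a side, Mtap, lies 93 kb away and encodes an enzyme of methionine salvage. It was at 81.7 FPKM in WT and 75.3 FPKM in the KO-labelled library. On the other side, Dmrta1, 338 kb from Cdkn2b, was listed at 0 in both. The nearest well-measured gene on the Cdkn2a side was thus 93 kb away in both lines. Whether the DNA of the pair is present in these cells was not tested, and RNA values of 0 cannot show it. Cdkn2c lies 20.29 Mb farther along the same chromosome, and Gne is on chromosome 4 as well.

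The promoter sequences show how the starts of the genes listed at 0 are built in the reference genome, not in these lines. RefSeq promoters (GRCm38.p6) were given for 7 of the 10 members, with no entry for Ccnd1, Ccnd2 and Cdkn1c. Both starts of Cdkn2a, the start of Cdkn2b and, for a member with measured RNA, that of Cdkn1b are printed. Which starts are used in these cells was not measured. Each stretch runs from 250 to 51 bases before the annotated start, on the strand of the gene, with every CG dinucleotide (CpG) in capitals.
Cdkn2a, start of p19Arf, chr4:89294670-89294869, minus strand: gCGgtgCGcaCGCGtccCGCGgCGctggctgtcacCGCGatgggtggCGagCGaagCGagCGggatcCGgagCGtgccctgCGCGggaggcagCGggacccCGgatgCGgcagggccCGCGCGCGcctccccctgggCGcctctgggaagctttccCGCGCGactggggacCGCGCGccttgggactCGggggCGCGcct
Cdkn2a, start of p16Ink4a, chr4:89282243-89282442, minus strand: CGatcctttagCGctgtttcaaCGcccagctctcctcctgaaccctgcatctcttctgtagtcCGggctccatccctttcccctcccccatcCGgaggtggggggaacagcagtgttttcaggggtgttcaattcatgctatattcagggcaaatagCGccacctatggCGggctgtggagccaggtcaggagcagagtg
Cdkn2b, chr4:89311083-89311282, minus strand: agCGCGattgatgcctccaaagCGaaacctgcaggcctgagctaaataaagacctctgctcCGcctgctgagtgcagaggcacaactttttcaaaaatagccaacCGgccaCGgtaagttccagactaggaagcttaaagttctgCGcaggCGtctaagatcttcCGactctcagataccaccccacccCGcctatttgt
Cdkn1b, chr6:134920151-134920350, plus strand: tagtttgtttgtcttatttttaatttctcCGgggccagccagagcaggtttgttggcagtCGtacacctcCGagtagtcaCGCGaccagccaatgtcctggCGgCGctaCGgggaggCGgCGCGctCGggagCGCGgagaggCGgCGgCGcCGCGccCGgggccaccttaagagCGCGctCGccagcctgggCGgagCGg

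The p19Arf start held 34 CpGs in these 200 bases, and 0.813% of the 32851 promoters in the table held at least as many. The p16Ink4a start held 7, a number reached by 38.3% of promoters, and Cdkn2b held 10, reached by 29.3%. Cdkn1b, at 53.5 FPKM in WT, held 25, reached by 4.83%, and the median promoter held 4. Of the other measured members, the starts of Ccnd3 held 8 and 14, and those of Cdkn1a held 2 and 14. Those of Cdkn2c held 5 and 21, and that of Cdkn2d held 13. Cdkn1b thus held the most among the measured members with a start given. Any link of CpG number to level was not tested. Methylation was not measured.

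**Figure D3:**
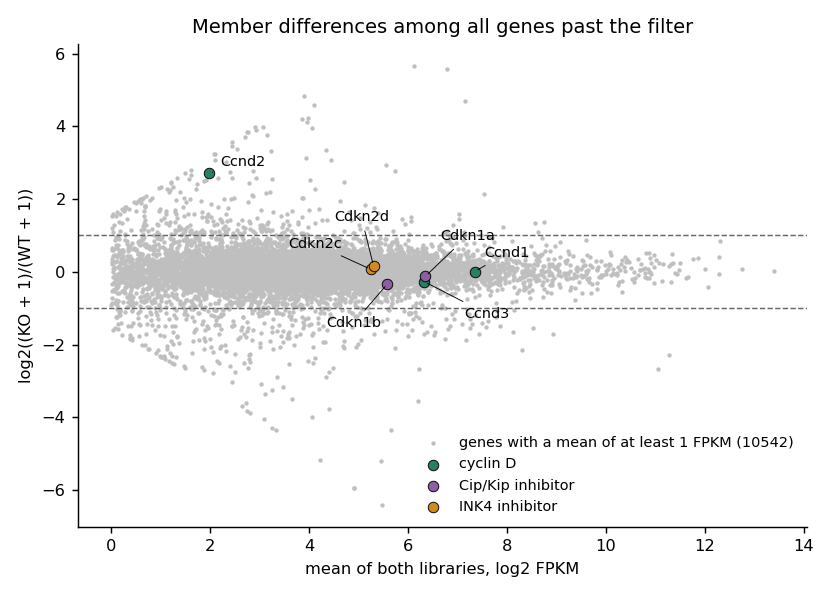
Difference between the libraries, log2((KO + 1)/(WT + 1)), against the mean level as log2 FPKM for the 10542 genes past the filter, with the 7 members past this filter in colour and dashed lines at a 2-fold change. Ccnd2, at 2.71, lies among the outer points at its level, and the other 6 members lie between -0.33 and 0.16.

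The order of the members by level was nearly the same in both lines. In WT it was Ccnd1, Ccnd3, Cdkn1a, Cdkn1b, Cdkn2d, Cdkn2c and Ccnd2. In the KO-labelled library, Cdkn1a stood before Ccnd3, and the rest of the order was as in WT. The levels of Ccnd3 and Cdkn1a were close in both, and without replicates it cannot be said whether they differ. The same holds for Cdkn2c and Cdkn2d.

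Sums over the classes show the balance of inhibitors and cyclins in each line. All inhibitors together summed to 212.8 FPKM in WT and 201.2 FPKM in the KO-labelled library. Divided by the sum of the cyclins D, this gave 0.848 and 0.825. For the Cip/Kip genes alone the ratio to the cyclins D was 0.553 and 0.494. For the INK4 genes the ratio to their targets, Cdk4 plus Cdk6, was 0.224 and 0.216. These ratios are of transcripts, and protein levels were not part of these data.

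Earlier analysis of these libraries had shown stretches of chromosomes whose genes moved together, so each member was set against its neighbours, taken as filtered genes no more than 5 Mb away in either direction. Ccnd2 lies on the minus strand of chromosome 6 from 127102125 to 127129156 in GRCm39. Its 59 neighbours had a median log2 difference of -0.10, and Ccnd2 minus this median was 2.82. The nearest genes of the files, Tigar at 16 kb and Parp11 at 294 kb, had log2 differences of -0.30 and 0.18. The difference of Ccnd2 was thus not shared by the genes around it. Cdkn1b lies 7.77 Mb from Ccnd2 on the same chromosome, and had a difference of the opposite sign. Its 25 neighbours had a median of 0.15, so that Cdkn1b minus its neighbours was -0.49, the second largest value in size among the members.

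Cdkn2d lies in a part of chromosome 9 where 58 neighbours had a median of 0.31, and its difference of 0.16 became -0.14 after subtraction. Ccnd3 and Cdkn1a share chromosome 17, 18.5 Mb apart, with neighbour medians of -0.11 and -0.08. After subtraction Ccnd3 was at -0.16 and Cdkn1a at -0.04. Ccnd1, on chromosome 7, lies 1.47 Mb from Cdkn1c, so that the most abundant member and a member listed at 0 are near each other. After subtraction of its neighbours Ccnd1 was at 0.15. With neighbours subtracted, 1 of the 7 members was more than 2-fold higher, against 2.63% of 10170 genes, and 0 were more than 2-fold lower, also against 2.63%. The 1 was again Ccnd2, which passed the filter only through its value in the KO-labelled library. This count therefore says little about the members as a group.

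**Figure D4:**
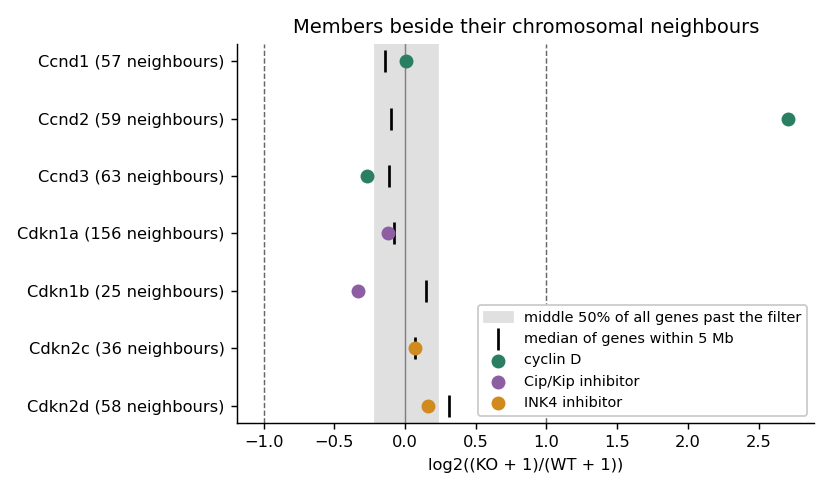
Log2 difference of each of the 7 members past the filter (points) and the median of the genes within 5 Mb (vertical ticks), with the middle 50% of all genes past the filter shaded and dashed lines at a 2-fold change. The ticks lie between -0.14 and 0.31, and Ccnd2, at 2.71, is the only point beyond a dashed line.

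The annotation places a transcript on the opposite strand, 9330179D12Rik, over the 5′ end of Ccnd2. The strand setting of the counting is not given in the sources used here, so reads of the pair might not be told apart. By distance over both libraries on the log2(FPKM + 1) scale, the 3 genes most like Ccnd2 were Nnmt, Smoc2 and Cthrc1. Nnmt was at 0.405 and 7.10 FPKM, Smoc2 at 0.406 and 6.92 FPKM and Cthrc1 at 0.370 and 6.27 FPKM. They lie on chromosomes 9, 17 and 15. With 2 libraries, such likeness covers only a level in each.

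The kinases and substrates of the cyclins D differed less than Ccnd2. Cdk4 was at 305.3 FPKM in WT and 351.8 FPKM in the KO-labelled library, a log2 difference of 0.20. Cdk6 was at 26.0 and 21.9 FPKM, a log2 difference of -0.24. Cdk4 was thus the main kinase transcript in both lines. The retinoblastoma gene Rb1 was at 7.79 and 7.89 FPKM, and its relative Rbl1 was at 15.5 and 16.4 FPKM. Rbl2, which encodes the relative p130 that binds E2F in resting cells, was at 14.7 and 7.77 FPKM, a log2 difference of -0.84. Rbl2 lies on chromosome 8, where its 52 neighbours had a median of -0.998, and its value minus theirs was 0.15. The lower level of Rbl2 was therefore no larger than that of the genes around it.

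Further genes of the pathway were taken from lists. Among all 10542 filtered genes, 3.43% passed the 2-fold limit downward and 2.84% upward. Counts of 0 or 1 in lists of 12 to 26 genes therefore say little about a list. Of 12 filtered kinases and cyclins of G1 and S phase, 0 were beyond 2-fold in either direction, with a median log2 difference of -0.088. Of 15 genes of pocket proteins, E2F and DP factors, 1 was more than 2-fold lower and 0 higher, with a median of 0.035. The lower gene was E2f2, an activator of S phase genes, at 10.6 FPKM in WT and 2.94 FPKM in the KO-labelled library, a log2 difference of -1.56, or -1.44 minus its neighbours. The 21 E2F targets of S phase, such as the Mcm genes and Pcna, had 0 genes beyond 2-fold in either direction and a median of -0.015, with single genes between -0.72 and 0.38.

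Of 18 genes for the turnover of cyclins D and inhibitors, 0 were beyond 2-fold, with a median of -0.043. Of 26 transcriptional activators of the members, 0 were beyond 2-fold, with a median of -0.006. The activity of these factors was not measured. Of 18 polycomb regulators of the Cdkn2a and Cdkn2b locus, 2 were more than 2-fold lower and 0 higher, with a median of -0.024, where 3.43% of all filtered genes were lower and 2.84% higher. With neighbours subtracted, 1 of the 18 was more than 2-fold lower. Cbx7, a polycomb protein known for repressing Cdkn2a, was at 8.46 FPKM in WT and 2.38 FPKM in the KO-labelled library, a log2 difference of -1.48. Cbx7 minus its neighbours on chromosome 15, whose median was -0.39, was -1.09. Ezh1, a histone methyltransferase, was at 6.77 and 2.77 FPKM, a log2 difference of -1.04 that became -0.99 after subtraction of its neighbours. Cdkn2a and Cdkn2b were listed at 0 in both libraries, and any link of Cbx7 or Ezh1 to these values was not tested.

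**Figure D5:**
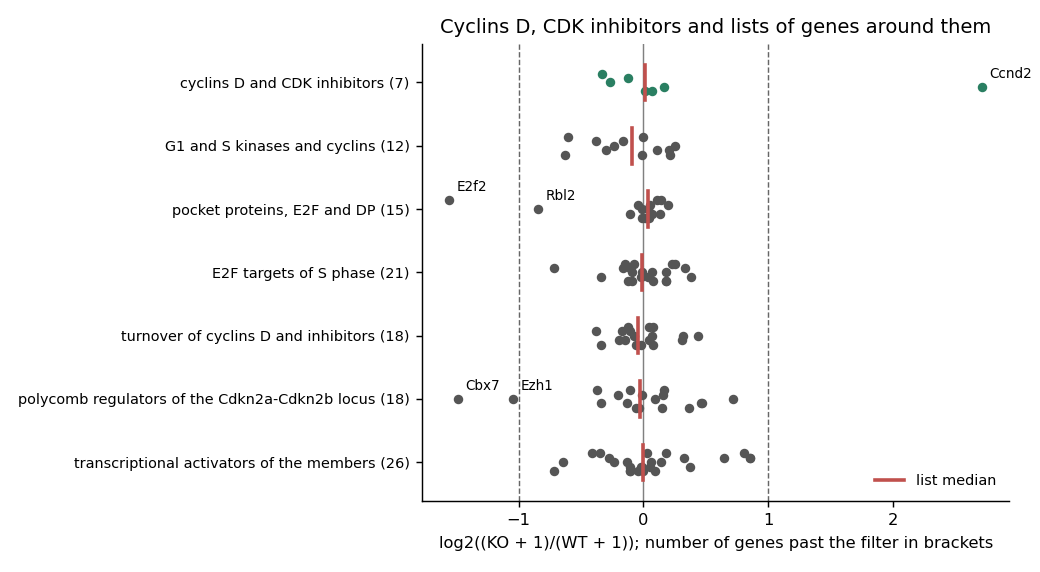
Log2 difference of every gene past the filter in the members (green) and in the 6 lists around them (grey), with list medians as red bars, dashed lines at a 2-fold change and the number of genes in brackets. The medians lie between -0.088 and 0.035, and the genes beyond a dashed line are Ccnd2 on the right and E2f2, Cbx7 and Ezh1 on the left.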

How the data were processed

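The deposited files hold a single value for each symbol and name no unit. The deposited values were read as FPKM, normalised by the authors to transcript length and depth, because they are not whole numbers and their totals, 568543 (WT) and 574253 (KO), differ and match no fixed sum. If the values were TPM, fold changes would shift by 1 common factor. According to the submitters' processing notes, reads were trimmed with Trim Galore 0.6.6, aligned with STAR 2.7.9a and quantified with RSEM 1.3.3. The notes name GRCm38 and the methods GRCm39, and the files hold no coordinates. The sample description names an Illumina stranded kit, and the supplementary methods an MGI kit. Read numbers are unknown. For 406 genes listed between 0.02 and 0.1 FPKM in both, the modal ratio of KO to WT was 1.13. Since the value of a single read falls with depth, this is a rough estimate of the depth of WT relative to KO.

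The 21853 rows held 24 repeats of a symbol, of which the entry with the larger mean was used. Genes averaging 1 FPKM or more were compared, with a pseudocount of 1. No count model was run, since the values are not counts. Positions came from GENCODE vM39, for 10171 of the 10542 genes. The script was tested on simulated data. Alternatives were pseudocounts of 0.1 and 5, a filter at 5 FPKM or none, scaling by the median of ratios or to equal totals, and subtraction of neighbours. Members and lists were chosen with earlier results of these data known. All members were named, as were Gne, Cdk4, Cdk6, Rb1, Rbl1, Rbl2, genes of the lists beyond 2-fold and the 3 genes most like the member that differed most. Genes beside a member on the chromosome were named after their values were seen, as were 9330179D12Rik and the markers given by name. Python 3.11.15, numpy 2.4.6, pandas 2.3.3 and matplotlib 3.10.9 were used.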

Additional observations from a re-analysis of the deposited data

How the results depend on the processing

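With a single library of each line, none could be left out. No paired analysis was possible because there is 1 pair only and nothing was tested. A member's difference was taken as moved when it shifted by more than 0.44, the width of the middle 50% of all genes. Ccnd2 had a log2 difference of 4.24 with a pseudocount of 0.1 and 1.24 with 5 in its place, compared with 2.71, since the pseudocount is large beside its WT value. With a filter at a mean of 5 FPKM, Ccnd2 was left out and 0 of 6 members were more than 2-fold higher. The other 33 of 35 member values under alternative settings shifted by less than 0.44, with 3 changes of sign. These were Ccnd1 under equal totals and Cdkn2c and Cdkn2d after subtraction of neighbours. For Cdkn2c the value after subtraction rounds to 0, so its change of sign is negligible. Over all settings, members other than Ccnd2 lay between -0.49 and 0.17. Scaling factors for the KO-labelled library were 0.995 and 0.990, so scaling moved little. Leaving members below the filter out of the class sums could not change them, since these members are listed at 0.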
